A study of Mus musculus with 6 samples.

Results

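The 6 Iroquois homeobox genes of the mouse lie in 2 clusters of 3 genes, Irx1, Irx2 and Irx4 on chromosome 13 and Irx3, Irx5 and Irx6 on chromosome 8. The accessible chromatin of both clusters is described here in the embryonic retina. All 6 genes were found by symbol in a RefSeq gene table of GRCm38.p6, and the files use GRCm38 too. Each cluster was taken from 100 kb before its first gene to 100 kb after its last, which gave 71858232 to 73369622 on chromosome 13 (1511 kb) and 91698511 to 92780956 on chromosome 8 (1082 kb). Peaks of the 6 libraries that shared 1 bp or more were merged into regions. Of 46780 merged regions in the genome, 54 lay in these intervals, 29 on chromosome 13 and 25 on chromosome 8.

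Chromatin was profiled by ATAC-seq, in which the transposase Tn5 cuts open DNA and tags it for sequencing, in retinas of C57BL/6 embryos at E14.5 (embryonic day). The wild-type libraries (Atoh7 +/+) and the SE/SE libraries (Atoh7 SE/SE, mutant for the shadow enhancer, an additional enhancer of Atoh7, which encodes a ganglion cell regulator) numbered 3 each. Every library came from the paired retinas of its own animal, which makes the libraries separate biological samples. No agent was given to either group, and whole retinas were used, so a peak may come from any of their cell types. The deposited lists held 27873 to 34797 peaks in wild type and 39115 to 44242 in SE/SE, and 2 further joint lists carry the name of a genotype, with 104991 peaks (wild type) and 120772 (SE/SE). Read depth behind the lists is unknown. PCR ran for 17, 18 and 19 cycles in wild type but for 15, 16 and 16 in SE/SE, so amplification and genotype cannot be told apart. Fewer accessible cells and less accessibility per cell cannot be told apart in these bulk samples either.

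Iroquois proteins are transcription factors of the TALE homeodomain class with a further conserved stretch, the IRO box. They pattern the neural tube, heart, limb and eye, and members of the family are transcribed in the differentiating ganglion cell layer of the embryonic retina. The clusters arose by duplication, so that Irx1 and Irx3, Irx2 and Irx5, and Irx4 and Irx6 are paralogous pairs at matching positions. Developmental regulator genes of this kind often have CpG-rich promoters and enhancers scattered through the gene-poor spaces around them.

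RefSeq promoter windows, 250 bases before to 50 after a start site, were matched for Irx2, Irx3 and Irx4. These 3, with that of Crnde, a long noncoding RNA gene whose start lies beside Irx5, are printed because they cover the whole range found here, from a peak in every library to a peak in none. Capitals mark CG dinucleotides, and each sequence reads 5′ to 3′ on the strand of its gene (GRCm38.p6). The windows are chr13:72628570-72628869 (Irx2, plus strand), chr13:73260247-73260546 (Irx4, plus strand), chr8:91801605-91801904 (Irx3, minus strand) and chr8:92356071-92356370 (Crnde, minus strand).
Irx2: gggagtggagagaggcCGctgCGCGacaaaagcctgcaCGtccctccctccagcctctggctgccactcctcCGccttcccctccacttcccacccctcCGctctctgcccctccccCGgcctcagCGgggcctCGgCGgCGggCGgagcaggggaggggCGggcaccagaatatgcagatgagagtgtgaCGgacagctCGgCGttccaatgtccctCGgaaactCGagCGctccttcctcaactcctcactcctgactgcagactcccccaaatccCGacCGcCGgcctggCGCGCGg
Irx4: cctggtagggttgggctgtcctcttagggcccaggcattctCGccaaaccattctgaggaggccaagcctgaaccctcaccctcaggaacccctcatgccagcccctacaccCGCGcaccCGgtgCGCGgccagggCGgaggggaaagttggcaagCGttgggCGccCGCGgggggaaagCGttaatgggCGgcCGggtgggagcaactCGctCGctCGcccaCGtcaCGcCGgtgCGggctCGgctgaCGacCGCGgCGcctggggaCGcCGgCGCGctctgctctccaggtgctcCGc
Irx3: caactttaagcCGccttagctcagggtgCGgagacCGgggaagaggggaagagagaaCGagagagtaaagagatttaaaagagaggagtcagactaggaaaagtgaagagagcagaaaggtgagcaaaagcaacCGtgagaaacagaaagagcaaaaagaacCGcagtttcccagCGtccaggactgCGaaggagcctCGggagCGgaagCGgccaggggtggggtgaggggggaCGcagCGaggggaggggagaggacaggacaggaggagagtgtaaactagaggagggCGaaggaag
Crnde: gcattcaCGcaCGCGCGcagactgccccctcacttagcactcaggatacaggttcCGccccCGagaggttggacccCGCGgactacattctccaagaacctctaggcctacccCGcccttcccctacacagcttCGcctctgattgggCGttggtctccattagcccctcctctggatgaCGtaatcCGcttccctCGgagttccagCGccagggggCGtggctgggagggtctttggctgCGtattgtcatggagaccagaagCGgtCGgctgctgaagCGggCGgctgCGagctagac

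Peaks overlapped the Irx2 and Crnde windows in 6 of 6 libraries, the Irx3 window in 5 and the Irx4 window in 0. Over all 32851 RefSeq promoter windows of this length, 38.8% had a peak in 6 of 6 libraries and 56.3% in 0. The Irx4 window held the most CG dinucleotides of the 4, with 31, a number that 90.5% of all windows did not exceed. The Irx2 window had 25, that of Crnde 22 and that of Irx3 14, against a median of 7 over all windows. GC content was 70.7% for Irx4, 69.0% for Irx2, 62.7% for Crnde and 56.0% for Irx3.

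Short motifs, chosen after the data were seen, were counted in the 4 windows on both strands. The GC box GGGCGG had 2 matches for Irx2, 2 for Irx4, 3 for Crnde and 0 for Irx3, and 35.7% of all windows held it. The CCAAT box CCAAT had 1 match each for Irx2 and Crnde and 0 for the others (37.4% of all windows). The E-box CANNTG, the core recognised by basic helix-loop-helix factors such as Atoh7, had 1 match each for Irx2 and Irx4 and 0 for Irx3 and Crnde (72.3% of all windows). The Iroquois site ACANNTGT, any match of which is also an E-box match, had 0 matches in each (7.38% of all windows), as had the homeodomain core TAATTA (5.29%) and the TATA box TATAAA (13.6%). These matches are letters in a window and were not tested as binding sites.

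The highest-ranked region of each cluster lay at or beside its middle gene. At Irx2 (gene ID 16372, chromosome 13, 72624430 to 72634196) the region at 72628123 to 72629566 spanned the start site at 72628820 and that of the noncoding gene Gm20554, which is transcribed the other way. Its peaks stood at percentiles 85.3, 86.3 and 84.3 of their own lists by signal value in wild type 1, 2 and 3, and at 89.6, 92.4 and 91.9 in SE/SE 1, 2 and 3. Their signal values were 1037, 1215 and 980.1 in wild type and 1525, 1960 and 1842 in SE/SE. It ranked second in each library among the Irx regions with a peak in all 6. The signal value is the authors' own measure per peak and has no stated scaling between libraries, so percentiles place a peak in its list and show no change between lists of different length. This region lies 3693 bp inside the longest annotated span of Irx2, so a measure based on gene ends misses it. The region within 1 kb of a gene end of Irx2, 72624045 to 72624189, had a peak in SE/SE 2 only, at percentile 20.1.

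Beside Irx5 (gene ID 54352, chromosome 8, 92357796 to 92361456), a factor needed for cone bipolar cell maturation in the retina, 2 regions were open in 6 of 6 libraries. The region over the Crnde start, 92355593 to 92356830, stood at percentiles 92.3, 92.6 and 92.5 in wild type and 92.4, 94.0 and 94.8 in SE/SE. Its signal values were 1430, 1656 and 1417 in wild type and 1760, 2167 and 2195 in SE/SE, the highest of the Irx regions in every library. The region over the lower-coordinate end of Irx5, 92357345 to 92358479, stood at 66.4, 58.2 and 55.9 in wild type and 72.0, 77.1 and 74.2 in SE/SE. In each joint list 1 peak covered both, 3160 bp long with rank 418 of 104991 in wild type and 3174 bp long with rank 415 of 120772 in SE/SE. The highest points of the Crnde peaks fell within 9 bp of each other over the 6 libraries, and those of the Irx2 region within 158 bp.

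Of the first genes, Irx3 had a called peak within 1 kb of an end in all libraries, and Irx1 in all but wild type 3. Irx3 (gene ID 16373, chromosome 8, 91798511 to 91801654), which acts in neural tube, limb and hypothalamus, had a region at 91800983 to 91801708 over its start site at 91801654. That region stood at percentiles 51.0, 53.2 and 25.7 in wild type and 57.5, 66.8 and 62.3 in SE/SE, with wild type 3 the lowest. A second region near its other end, 91797618 to 91797816, lay over the start of the noncoding gene Gm39222 in 6 of 6 libraries at percentiles 14.3 to 42.8. A further region beside the start, 91802008 to 91802225, had peaks in wild type 1 and 2 and in all SE/SE libraries, at percentiles 2.03 to 29.0. The joint peaks at Irx3 were 2763 bp long in wild type and 2969 bp in SE/SE. At Irx1 (gene ID 16371, chromosome 13, 71958232 to 71963723), a gene known from heart and lung development, the region over the higher-coordinate end, 71963468 to 71963975, had a peak in wild type 1 and 2 and in SE/SE 1, 2 and 3. Its percentiles were 16.7 and 24.1 in wild type and 29.7, 42.5 and 36.5 in SE/SE, and wild type 3 had no peak there. A weaker region next to it, 71963196 to 71963352, had peaks in SE/SE 2 and 3 only, at percentiles 2.13 and 8.40. The nearest region open in 6 of 6 libraries lay 401840 bp from Irx1. Over the higher-coordinate end of Irx1 itself the joint lists had peaks of 1587 bp (wild type) and 1655 bp (SE/SE), at percentiles 86.5 and 89.3.

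By the highest peak within 1 kb of its ends, Irx6 ranked below Irx3 and Irx5 in every library, and Irx4 had no such peak. Irx6 (gene ID 64379, chromosome 8, 92674289 to 92680956), expressed in a class of OFF cone bipolar cells later in life, had a region 367 bp from its lower-coordinate end, at 92673562 to 92673922, in 6 of 6 libraries. It stood at percentiles 18.7, 38.6 and 16.4 in wild type and 42.9, 49.2 and 48.7 in SE/SE. A region just inside the gene, 92674571 to 92674704, had a peak in SE/SE 3 only, at percentile 2.05. Irx4 (gene ID 50916, chromosome 13, 73259589 to 73269622), best known from the ventricular heart muscle, had no peak within 1 kb of either end in any library. The gene held 1 library peak, 73265508 to 73265608 in SE/SE 2, at percentile 6.11. The region nearest to an end lay 2298 bp beyond the higher-coordinate end and had peaks in SE/SE 2 and 3. Both joint lists had a peak over the Irx4 start, 73260344 to 73260864 at percentile 58.1 in wild type and 73260311 to 73260864 at percentile 48.7 in SE/SE. Absence from the library lists therefore says that no peak was called, not that the start is closed.

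**Figure D1:**
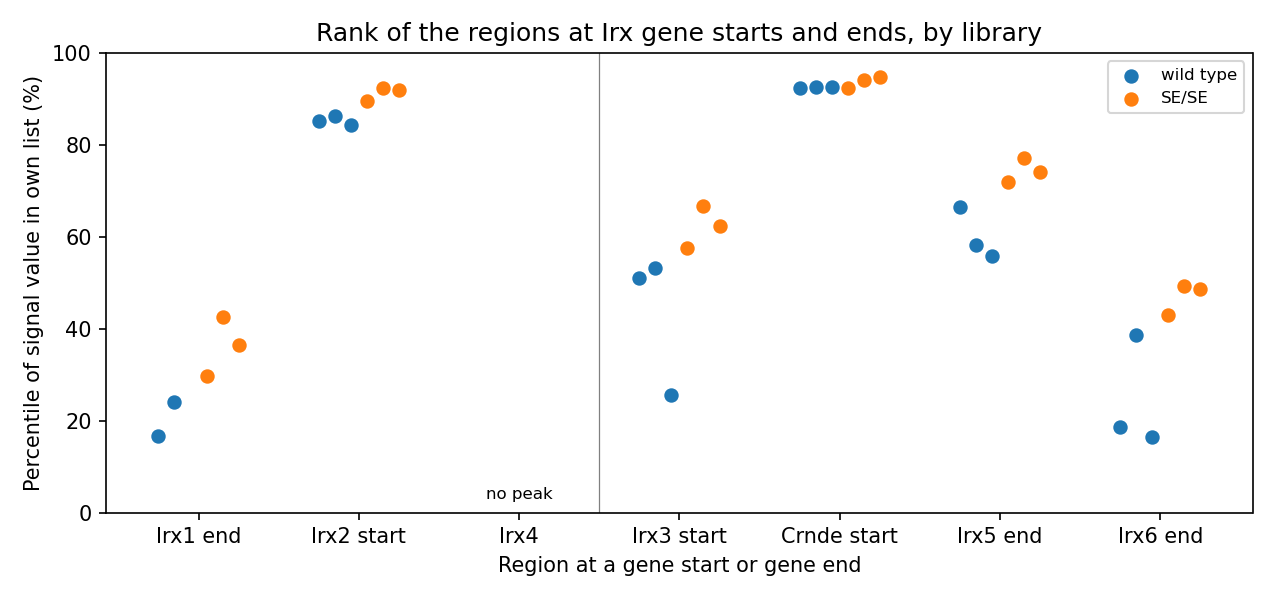
Percentile of the authors' signal value within each library's own list (vertical axis, %) for the regions at Irx gene starts and ends (horizontal axis), 1 point per library, chromosome 13 to the left of the grey line and chromosome 8 to the right. The Irx2 and Crnde starts lie above 84 in all libraries, Irx1 has 5 points, and Irx4 has no peak.

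By gene ends, 3 of the 6 genes (Irx3, Irx5 and Irx6) had a peak within 1 kb in 6 of 6 libraries, as had 55.6% of 21883 protein-coding genes. Irx4 had none, as had 38.9% of protein-coding genes. Irx1 had such a peak in 2 libraries of wild type and 3 of SE/SE, and Irx2 in SE/SE 2 only. Of the protein-coding genes, 5.37% had one in more SE/SE than wild-type libraries. The number of Irx genes with an end peak was 4, 4 and 3 in wild type and 4, 5 and 4 in SE/SE, means of 3.67 ± 0.577 and 4.33 ± 0.577 (SD, n = 3, exact two-sided permutation p = 0.6). With the promoter windows in place of the ends of Irx2, Irx3 and Irx4, a count added after seeing the data, the numbers were 5, 5 and 3 in wild type and 5, 5 and 5 in SE/SE (exact permutation p = 1.0). All values but that of wild type 3 were equal, so every assignment gave the same absolute difference. That p was therefore fixed and carries no information on a difference. Groups of 3 against 3 cannot give a p below 0.1, so this and the other tests here cannot reach 0.05.

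More regions lay between the genes than at them. Of the 54 regions, 30 were between cluster genes, 10 within 1 kb of an Irx gene end, 5 inside an Irx gene and 9 outside the outer genes. The spaces between the genes were 312.8 to 660.7 kb long and the genes 3144 to 10034 bp. Per base, regions were therefore denser at the genes than between them. A peak in 6 of 6 libraries was found at 18 of the 54 (33.3%), against 52.1% of all merged regions. The cluster on chromosome 13 had 6 such regions of 29 (20.7%) and that on chromosome 8 had 12 of 25 (48.0%). Wild type 3, with the shortest list, had a peak at these 18 and at none of the other 36. Without wild type 3 the number open in all remaining libraries was 23. The 18 were wider than the other 36, with median widths of 538 and 168.5 bp, and their median percentiles reached from 29.8 to 92.6 against 0.0492 to 49.7. Both contrasts follow at least in part from the grouping. A merged region spans the peaks of all its libraries, and a peak near the lowest signal is more easily missing from some lists.

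Of the 18 shared regions, 8 lay between cluster genes and more than 1 kb from an Irx gene end, and 4 in the outer flanks. The space between Irx1 and Irx2 (660.7 kb) had 1, at 72365563 to 72366313, 258.1 kb from the nearest Irx gene end. It was among the 5 highest of the 18 in every library, at percentiles 64.4, 60.7 and 52.2 in wild type and 70.3, 72.5 and 74.8 in SE/SE. The space between Irx2 and Irx4 (625.4 kb) had 2. The region at 73160280 to 73160727, 98.9 kb before Irx4, stood at 62.9, 66.9 and 58.7 in wild type and 70.8, 73.4 and 73.7 in SE/SE, and that at 73117476 to 73117985 at 44.2, 56.3 and 22.02 and at 54.2, 62.7 and 64.6. Irx4, without a library peak at its ends, thus had 2 regions before it that were open in every library. Which gene a distal region acts on was not measured.

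On chromosome 8 the space between Irx3 and Irx5 (556.1 kb) had 3 shared regions besides that at the Crnde start. That at 91997104 to 91997737 covered the start of the noncoding gene Gm36843 and stood at percentiles 39.9, 49.6 and 37.8 in wild type and 62.8, 65.7 and 65.3 in SE/SE. The region at 92133918 to 92134418 had no gene end within 1 kb and stood at 53.4, 56.1 and 50.1 in wild type and 64.6, 62.2 and 64.6 in SE/SE. The region at 92167257 to 92167822 stood lower, at 29.4, 39.8 and 26.7 in wild type and 52.0, 52.6 and 54.0 in SE/SE. The space between Irx5 and Irx6 (312.8 kb) had 2 besides that just before Irx6. Among the shared regions, the widest range of percentiles belonged to 92460213 to 92460989, with 14.3, 29.2 and 11.8 in wild type and 39.3, 60.8 and 63.0 in SE/SE. The other, 92545377 to 92545809, stood at 28.5, 30.0 and 24.3 and at 43.5, 51.1 and 47.4. The highest points of a region's peaks fell within less than 100 bp of each other at 15 of the 18 regions. The exceptions were the Irx2 start, 92460213 to 92460989 (115 bp) and the Gm36843 start (424 bp).

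**Figure D2:**
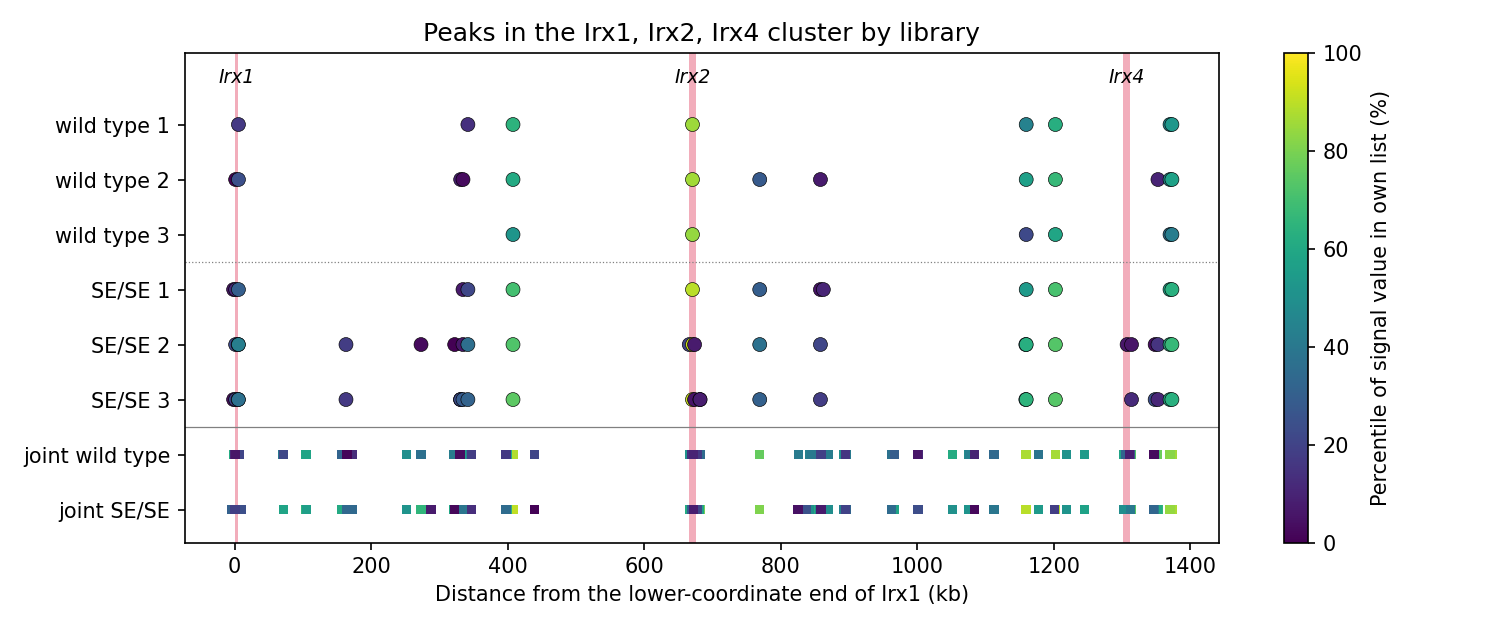
Peaks of the Irx1, Irx2 and Irx4 cluster by library (rows), against the distance from the lower-coordinate end of Irx1 (kb). Each circle is a merged region with a peak in that library, each square a joint-list peak, and colour is the percentile of signal value in the row's own list. The 6 regions present in every library form full columns, and the only circle inside Irx4 is in SE/SE 2.

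**Figure D3:**
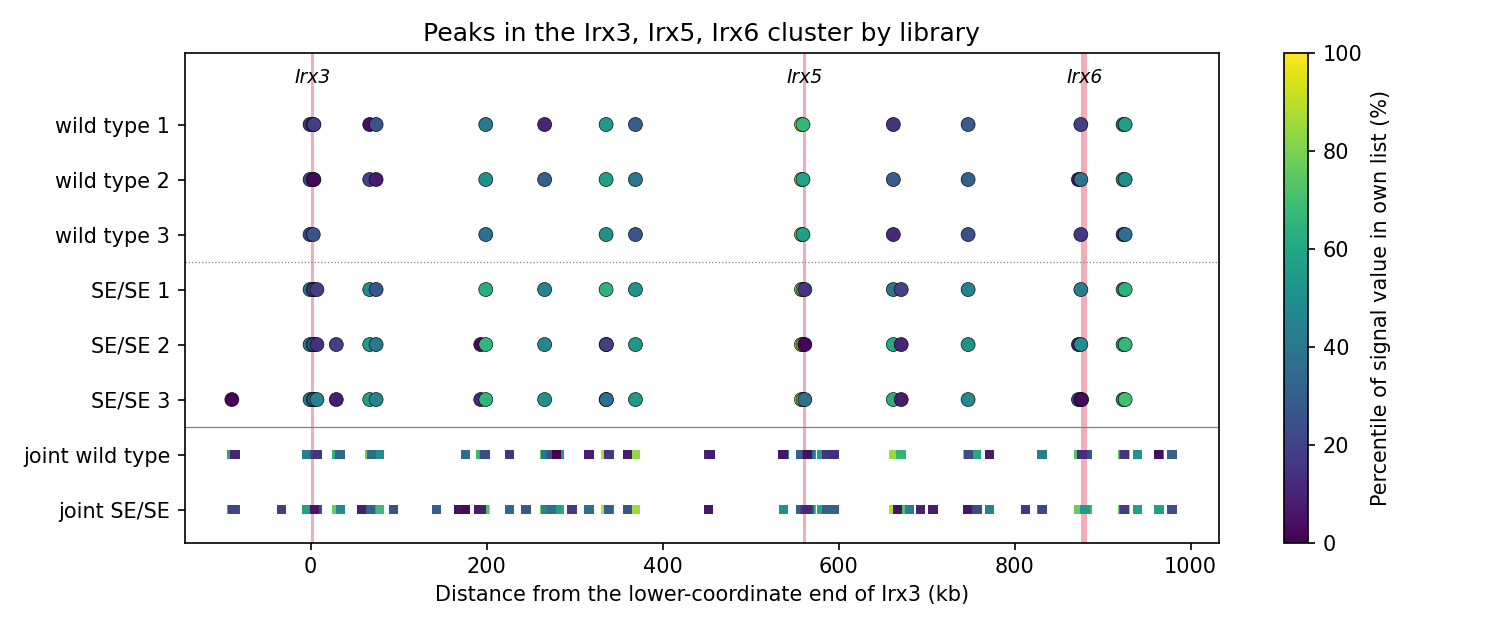
The same for the Irx3, Irx5 and Irx6 cluster, against the distance from the lower-coordinate end of Irx3 (kb). The 12 regions present in every library form full columns, some of them overlapping at this scale, with the brightest circles beside Irx5.

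Outside the outer genes, 2 shared regions beyond Irx4 covered the starts of Ndufs6, a subunit gene of mitochondrial complex I, and Mrpl36, a mitochondrial ribosomal protein gene. The Ndufs6 region stood at percentiles 46.4, 47.2 and 36.1 in wild type and 57.2, 61.0 and 59.98 in SE/SE. The other 2 lay 40.7 and 42.9 kb beyond Irx6, at 92721646 to 92721871 and 92723831 to 92724281, and had no gene end within 1 kb. The longest stretches with no peak in any library were 296433 bp between Irx2 and Irx4 and 257731 bp between Irx1 and Irx2. The first held 15 joint wild-type and 14 joint SE/SE peaks and the second 1 of each. These stretches thus differed in how many peaks the joint lists had in them.

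The share of Irx regions with a peak in more SE/SE than wild-type libraries was above that of all regions as deposited and near it with lists of equal length, with no test of either. As deposited, more SE/SE than wild-type libraries had a peak at 35 of the 54 (64.8%), against 45.8% of all merged regions, and 23 of the 54 (42.6%) had peaks in SE/SE libraries alone, against 27.7%. With the 27873 highest peaks of each library, the length of the shortest list, these numbers were 6 (11.1%), against 11.0%, and 2 (3.70%), against 4.93%. More wild-type than SE/SE libraries had a peak at 0 of the 54 as deposited, against 0.923%, and at 1 with equal lengths, against 5.00%. That region was 91802008 to 91802225 beside the Irx3 start, with a peak in wild type 1 only. Peaks in wild-type libraries alone occurred at 0 regions as deposited, against 0.750%, and in 3 wild-type and 0 SE/SE libraries at 0, against 0.0321%. Counts of 0 are near those shares for 54 regions. All 3 SE/SE and 0 wild-type libraries had a peak at 3 of the 54 (5.56%), against 8.23%. With a library left out the call needs fewer libraries, and this number was 7 without wild type 2 and 12 without SE/SE 1. The share over all regions was not computed for these 2 settings, so 8.23% is not their background. All 54 regions overlapped a peak in both joint lists, as did 100% of merged regions after rounding (46769 of 46780). Chromosome 13 had 0 regions open in all SE/SE and no wild-type libraries, although 15 of its 29 were in SE/SE alone.

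The 3 regions with a peak in all SE/SE and no wild-type libraries all lay on chromosome 8, at percentile 45.6 or lower. Each had a peak in the joint wild-type list too, at percentiles 82.1, 76.9 and 65.5 of that list in the order given here. The region at 91805320 to 91805726, inside the noncoding gene Irx3os and 3666 bp from Irx3, stood at percentiles 18.5, 13.9 and 45.6 in SE/SE 1, 2 and 3. The region at 92359940 to 92360151, inside Irx5, stood at 15.3, 1.40 and 37.0. The region at 92469503 to 92469637, 108.0 kb beyond Irx5, stood at 20.3, 10.2 and 7.24. With lists of equal length, 1 of the 3 kept a peak, in SE/SE 3, and 0 regions were open in all SE/SE and no wild-type libraries. Under that setting all 18 shared regions were again found in 6 of 6 libraries.

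Mean peak numbers in both intervals were higher in SE/SE as deposited, and with lists of equal length they differed by 0 on chromosome 13 and by 1 on chromosome 8. The chromosome 13 interval had 8, 14 and 7 peaks in wild type and 14, 23 and 24 in SE/SE, means of 9.67 ± 3.79 and 20.3 ± 5.51 (SD, n = 3, exact permutation p = 0.2), with wild type 2 level with SE/SE 1. The chromosome 8 interval had 17, 21 and 13 in wild type and 22, 25 and 27 in SE/SE, means of 17.0 ± 4.0 and 24.7 ± 2.52 (exact permutation p = 0.1), with no overlap between the groups. Together the intervals had 1.69 times as many peaks in SE/SE, against 1.34 times over the whole lists (p = 0.1 for each by the same exact permutation test). Per 10000 peaks of the list they had 7.98, 10.1 and 7.18 in wild type and 9.20, 11.2 and 11.5 in SE/SE, which overlapped (exact permutation p = 0.2). Over the 10 differences tested on the deposited lists, Benjamini-Hochberg adjusted values of these exact permutation p lay between 0.2 and 0.6. Counted only over peaks more than 1 kb from a protein-coding gene end, added after seeing the data, there were 9.55, 11.9 and 8.76 per 10000 in wild type and 10.7, 12.99 and 13.7 in SE/SE (exact permutation p = 0.2).

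With lists of equal length, the chromosome 13 interval had 8, 8 and 7 peaks in wild type and 8, 9 and 6 in SE/SE, a difference of means of 0 (exact permutation p = 1.0). The chromosome 8 interval had 15, 15 and 13 in wild type and 14, 15 and 17 in SE/SE (exact permutation p = 0.6). Bases covered by peaks did not overlap between the groups, in the intervals or in the whole lists. As deposited, peaks covered 8491, 10091 and 6023 bp of the intervals in wild type and 12982, 16281 and 16619 bp in SE/SE, a ratio of 1.86 against 1.36 over the whole lists (exact permutation p = 0.1 for each). With equal lengths they covered 8162, 8419 and 6023 bp in wild type and 10943, 12641 and 11840 bp in SE/SE, a ratio of 1.57 against 1.24 (exact permutation p = 0.1 for each). The difference between the interval and whole-list ratios was not tested. The median peak width of the lists as deposited was 301 to 322 bp in wild type and 289 to 295 bp in SE/SE. With equal lengths every list had the same number of peaks, so the whole-list ratio of 1.24 is a ratio of mean peak widths. In the intervals the mean peak numbers at equal lengths were 22 in wild type and 23 in SE/SE. Most of the ratio of 1.57 thus lay in a larger mean width of the SE/SE peaks. Width, list length and PCR cycles all moved with genotype. The part of width in the values as deposited, and of PCR cycles in all these values, was not tested.

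**Figure D4:**
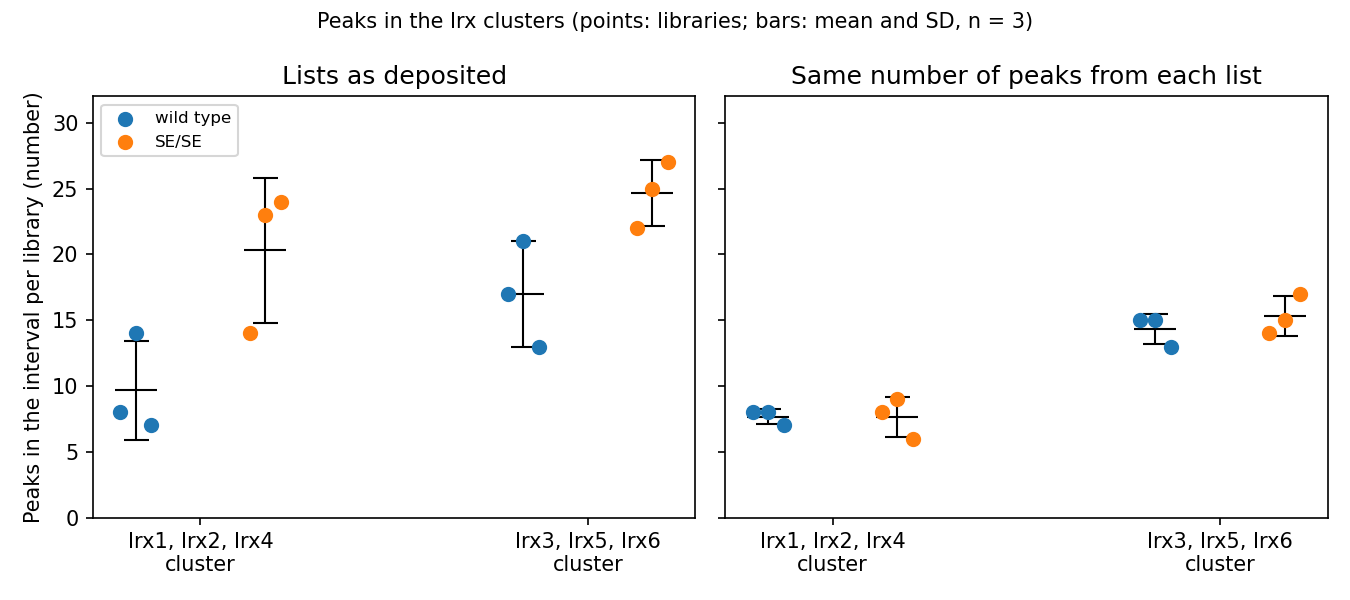
Number of peaks per library (vertical axis) in the interval of each cluster, for the lists as deposited (left) and for the 27873 highest peaks of each list (right). Points are libraries and bars show mean and SD (n = 3). SE/SE points lie above all wild-type points only for the Irx3, Irx5 and Irx6 cluster at the left, and at the right the groups overlap in both clusters.

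The joint lists described the clusters in more detail than the libraries did. They held 163 peaks in wild type and 176 in SE/SE in the intervals, of which 46 in each list overlapped a library peak. Of the joint wild-type peaks 71.8% had no library peak, against 60.5% of that whole list, and of the joint SE/SE peaks 73.9%, against 66.0%. The joint wild-type list had 12 peaks (7.36%) without overlap in the other, against 6.28% of all its peaks. For SE/SE these were 31 peaks (17.6%), against 22.0%. The highest wild-type peak without overlap, 92384256 to 92384489 beyond Irx5, stood at percentile 40.3, and the highest SE/SE one, 92113997 to 92114358 between Irx3 and Irx5, at percentile 44.4. None of these peaks overlapped a library peak, and with 1 list per genotype they have no test.

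Of the noncoding genes in the intervals, Gm20554 beside Irx2, Crnde beside Irx5, and Gm39222 and Gm36843 had a peak within 1 kb of an end in 6 of 6 libraries. For Irx3os the libraries with such a peak were 2 of wild type and 3 of SE/SE, for D730050B12Rik 1 and 3, and for Gm36670 0 and 2. The other noncoding genes of the intervals, the larger number, had no end peak in any library, among them Gm36325, Gm38580 and Eprn. Shares over all noncoding genes were not computed, so these counts have no background and show no trait particular to the clusters. Among 16 genes named as regulators, partners or relatives of Irx genes, 10 had an end peak in 6 of 6 libraries, near the 55.6% of all protein-coding genes. They include Pax6 of retinal progenitors, Gli3 of the hedgehog pathway, and Mkx, an Iroquois-related TALE gene. Otx2, Tbx5 and Shh had none in any library, but each had one in both joint lists. Fgf8, a signal that patterns the optic stalk, had one in 2 libraries of wild type and 3 of SE/SE, and Bmp4, a dorsal signal, in 0 and 1. These were the 2 of the 16 with an end peak in more SE/SE than wild-type libraries, against 5.37% of protein-coding genes. Six3, a factor that opposes Irx3 in the forebrain, had one in 2 of 3 libraries of each genotype.

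Markers of the retina and of other cells were read in the same way. End peaks were present in 6 of 6 libraries for 5 of 6 ganglion cell and 5 of 5 progenitor markers. The shares over protein-coding genes given above, 55.6% in 6 of 6 and 38.9% in 0 of 6, are the background for these counts. None of 4 microglia and blood markers had an end peak in any library. Of 4 pigment epithelium markers, Mitf and Pmel had one in 6 of 6 and Tyr and Rpe65 in 0. Of 4 endothelial markers, Kdr had one in 6 of 6 and Cdh5 and Pecam1 in 0, and of 3 lens markers Cryaa and Cryba1 in 0. Between 3 and 4 of 5 mesenchyme markers had an end peak in wild-type libraries and between 4 and 5 in SE/SE libraries. Foxe3 of the lens had one in 1 wild-type and all SE/SE libraries, and Flt1 of the endothelium in 0 and all. The part of other cell types in the Irx values was not tested.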

How the data were processed

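ATAC-seq peak lists of 6 retinal libraries and 2 joint lists were used. Genrich 0.5, bedtools 2.27.0, cutadapt, limma, BWA and GRCm38 (mm10) are listed in the submitters' processing notes, without roles; trimming, duplicate removal, the Tn5 shift and how libraries were joined are not given in the sources used here. Per the file headers the lists are narrowPeak tracks. The deposited signal value, never below 20, ranked peaks within a list. The deposited score equals 1000 times that signal over peak width to within 1, capped at 1000, and was not used. The deposited −log10 p served as an alternative ranking.

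A percentile is a peak's rank by signal value from the lowest, as a percentage of its list. A library had a region at 1 bp overlap. For differences between genotypes, all 20 assignments of the libraries were enumerated (exact permutation test, two-sided). Distances run to the nearest edge of a peak or region. The table of genes gives no strand, so gene ends were used beside promoter windows. The named genes are the 6 Irx genes, genes ending inside the intervals and a list of 16 regulators, partners and relatives; the named regions are those at Irx gene ends, those in all libraries of 1 genotype and none of the other, the 5 shared regions per cluster with the highest joint wild-type signal and the highest joint peaks without overlap. Other regions were named, and the 6 motifs chosen, after values were seen. Members and lists were chosen with earlier results of these data known. Library numbers did not pair the samples (see the closing section).

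Calculations used Python 3.11.15, numpy 2.4.6, pandas 2.3.3 and matplotlib 3.10.9. The merging of peaks into regions was run on simulated lists: of 200 planted regions per genotype among 20000, 200 and 200 were recovered. The simulated peaks were well separated and had no signal threshold, so this checks the code and not the calling of weak peaks.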

Additional observations from a re-analysis of the deposited data

How the results depend on the processing

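Alternatives changed library, list, overlap, interval and distance. Of 175 alternative values, 162 kept direction or stayed within 1.5 times the count, 13 moved and 0 reversed. None of the tested values could pass 0.05. With equal list lengths the difference was 0 for chromosome 13 peaks, for these per 10000 peaks and for gene ends, and the regions numbered 27, with 0 in all SE/SE and no wild-type libraries (here SE/SE-specific). With a signal value of at least 100 there were 28 regions, 10 in all libraries and 5 SE/SE-specific, and joint wild-type peaks without overlap numbered 2 instead of 12. At that setting SE/SE had 11.7 more peaks in the intervals on average (exact permutation p = 0.1). Per 10000 list peaks the difference was 2.37 (exact permutation p = 0.1), with 0.171 on chromosome 13 (p = 0.6) and 2.20 on chromosome 8 (p = 0.1) by the same test. Where peaks had to cover 50% of a region, 8 were in all libraries and 5 SE/SE-specific. Leaving out 1 library gave 3 to 12 SE/SE-specific regions, 18 to 23 in all libraries and a difference of 15.0 to 22.8 peaks. For the signal, coverage and leave-out settings, regions were not counted over the whole genome. Their counts thus have no background share and show no trait particular to the Irx regions. Without both wild type 2 and SE/SE 1, added after seeing the data, the difference was 27.0 peaks.

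Same-numbered libraries were also treated as pairs. Their deviations from the group means over 24370 shared regions correlated at 0.0102, 0.117 and -0.194, so the numbers were not taken as pairs. With the replicate block the difference of 18.3 peaks had an exact sign-flip p = 0.25, the smallest that 3 pairs allow. Without read counts, a weak peak and a missing one could not be told apart by depth.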
